A study of Mus musculus with 24 samples.

Results

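Tubule injury and repair markers are transcripts that kidney tubule cells switch on when they are damaged and while they regrow or fail to regrow. Damaged proximal tubule cells lose their transport programme and display Havcr1 (KIM-1), a receptor with which they engulf dead neighbours. The distal nephron secretes Lcn2 (NGAL), a carrier of iron-binding siderophores that is measured in urine as an injury marker. Cells that regrow or stay stalled express the transcription factors Sox9 and Sox4, the surface proteins Cd24a, Cd44 and Vcam1, and the secreted proteins Spp1 (osteopontin) and Clu (clusterin). In polycystic kidney disease, cysts grow from tubule epithelium that compresses and damages its surroundings.

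The 10 markers described here, Havcr1, Lcn2, Spp1, Clu, Sox9, Vcam1, Cd44, Sox4, Cd24a and Anxa2, were chosen by gene symbol as known markers of damaged and failed-repair tubule cells. Earlier results of these data were known when they were chosen, so their shares beside all genes are descriptive. Each symbol had 1 row among the 54532 genes of the count table, and all 10 were among the 22570 genes tested.

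The RNA came from whole kidneys of 24 C57BL/6 mice that were 18 days old, and each mouse gave 1 library. All mice carry a Pkd1 RC allele, a missense change that lowers the amount of mature polycystin-1. In RC/+ mice, labelled control, the other Pkd1 allele is floxed and intact. In RC/- mice, labelled cystic, it is inactivated by Ksp-Cre, which acts in tubule epithelium of the kidney, so Cre and the cystic genotype cannot be told apart. In the D18 (founder 3) and D53 (founder 2) lines, CRISPR editing removed the miR-17 binding motif from the 3′ UTR of Pkd1 on the RC allele, and each line descends from 1 edited founder. There were 3 mice each of RC/+, RC/+ D18 and RC/+ D53, and 5 mice each of RC/-, RC/- D18 and RC/- D53. The paper bred edited and unedited genotypes from the same pairs, and no founder is given here for the unedited RC/+ and RC/- mice. It reports earlier deaths among RC/- mice bred from founder 2 than from founder 3. Founder of origin therefore cannot be matched in comparisons of edited with unedited mice. The edit is shown by the pair of sequences that it parts. In the microRNA the capitals mark the seed, bases 2 to 8, and in Pkd1 they mark the letters complementary to it, in exon 46 at chr17:24595719-24595740 (GRCm38, plus strand).

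mmu-miR-17-5p: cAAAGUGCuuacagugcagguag
Pkd1 3′ UTR site: atatggggcttctGCACTTTaa

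Libraries held 20.4 to 30.8 M counts, and levels are given as CPM, counts scaled to the same library total. The labelled tissue was checked against its markers. Summed CPM of 12 proximal tubule genes was 10867 to 11833 in RC/+ and 2638 to 6044 in RC/-, with 12 of 12 genes lower, Slc5a12 and Miox the most. Of 10 distal nephron and collecting duct genes, 5 were higher and 5 lower in RC/-, with Calb1 and Slc12a3 the most lowered. All 12 macrophage genes were higher in RC/- (summed 639 to 1160 against 298 to 317 CPM), led by Lyz2 and Mrc1, and 6 of 10 fibroblast genes were, led by Acta2 and Col1a1. Of the endothelial genes 6 of 10 were lower, Tek and Ehd3 the most, and of the T cell genes Lck was higher and Cd8a lower. Of 10 neutrophil genes, 8 were tested and none was called by limma in RC/- against RC/+ (1, Csf3r, passed an unadjusted p below 0.05), with Retnlg at 0.81 and Camp at 0.57 on the log2 scale, and Camp in RC/+ and Mpo in RC/+ D18 had 0 counts. Skeletal muscle genes summed to 184 to 240 CPM in replicates 20 to 27 (3 libraries of RC/- D18 and the whole RC/- D53 group), against 10.6 to 25.2 CPM in the other 16, and Ckm had 0 counts in RC/+ D18. Because whole kidneys were sampled, more cells that express a marker and more of its RNA per cell cannot be told apart in any result below.

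Compared per kilobase of annotated exon, the markers spanned a wide range in RC/+ kidneys. Spp1 was the most abundant, at 766 ± 52.0 CPM per kb (SD, n = 3). Cd24a at 163 ± 6.58, Clu at 68.3 ± 3.22 and Anxa2 at 54.8 ± 4.84 CPM per kb followed. Sox4 stood at 9.23 ± 1.09, Vcam1 at 3.22 ± 0.373 and Lcn2 at 2.47 ± 0.546 CPM per kb, and the ranges of Vcam1 and Lcn2 overlapped. Cd44, Sox9 and Havcr1 were the lowest, at 0.50 ± 0.124, 0.331 ± 0.0373 and 0.125 ± 0.0486 CPM per kb. In RC/- kidneys the order differed. Spp1 at 2297 ± 601 CPM per kb (SD, n = 5) was followed by Clu at 632 ± 223 and Cd24a at 332 ± 34.3 CPM per kb. Anxa2 at 134 ± 10.9 and Lcn2 at 127 ± 36.5 CPM per kb had overlapping ranges. Havcr1 moved from the last place to the seventh, at 8.48 ± 6.57 CPM per kb, and its range of 1.499 to 17.4 overlapped those of Sox4, Vcam1 and Cd44. Sox9 was then the lowest, at 0.845 ± 0.174 CPM per kb.

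In unedited kidneys, 9 of the 10 markers were higher in RC/- than in RC/+ and none was lower, with an adjusted p below 0.05. Over all genes tested, 25.5% were higher and 12.2% lower. On the log2 scale, the markers' median difference was 1.42, against 0.141 for all genes. The same 9 markers had every RC/- library above every RC/+ library, which held for 26% of genes tested. Log2 fold changes are on a scale with a prior count of 2, which understates those of genes with few counts.

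Havcr1 and Lcn2, the epithelial damage markers, had the highest log2 fold changes of the 10. Havcr1 (chromosome 11, 46735080 to 46779578, plus strand) was at 0.286, 0.177 and 0.401 CPM in the 3 RC/+ libraries, which is 4 to 10 counts. In RC/- replicates 13 to 17 it was at 3.46, 8.49, 29.8, 16.1 and 40.2 CPM. All RC/- libraries lay above the RC/+ libraries, and they differed among themselves by 11.6-fold. Havcr1 was higher in RC/- by 5.32 on the log2 scale (SE 0.62, adjusted p = 3.20e-07). Lcn2 (chromosome 2, 32384633 to 32388252, minus strand) was at 5.14, 6.28 and 7.99 CPM in RC/+ and at 220, 271, 331, 382 and 466 CPM in RC/-. It rose by 5.65 on the log2 scale (SE 0.39, adjusted p = 1.24e-10), and the groups were far apart. The order of these genes depends on the scale: the ratio of group means was larger for Havcr1 (0.288 to 19.6 CPM) than for Lcn2 (6.47 to 334.0 CPM). Neutrophils also make Lcn2. The 10 neutrophil genes together summed to 5.53 to 14.1 CPM in RC/- and 5.42 to 9.27 CPM in RC/+, and their part in the Lcn2 difference was not tested.

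The secreted proteins were also higher. Clu, a chaperone that binds misfolded proteins outside cells (chromosome 14, 65968483 to 65981547, plus strand), was at 225, 247 and 232 CPM in RC/+. In RC/- it was at 1205, 1612, 2702, 2268 and 3070 CPM, higher by 3.13 on the log2 scale (SE 0.19, adjusted p = 1.79e-11). Spp1, a matrix phosphoprotein that binds integrins and Cd44 (chromosome 5, 104435118 to 104441050, plus strand), was at 1316, 1307 and 1163 CPM in RC/+. It was at 2382, 3361, 4940, 4452 and 3794 CPM in RC/-, which was 1.54 higher on the log2 scale (SE 0.14, adjusted p = 1.17e-08). Both genes had groups that did not overlap, although the loop of Henle and distal tubule of a healthy kidney already make osteopontin and the RC/+ level was high. Of the Spp1 exon bases, 18.75% are shared with Gm42793 on the same strand, which had a mean of 1.28 CPM.

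Among the surface proteins, Cd44 rose the most. Cd44, a receptor for hyaluronan and osteopontin (chromosome 2, 102811141 to 102901665, minus strand), was at 3.43, 4.20 and 2.53 CPM in RC/+ and at 13.5, 10.7, 18.8, 27.7 and 19.996 CPM in RC/-. This was a rise of 2.35 on the log2 scale (SE 0.28, adjusted p = 3.90e-07). Cd24a, a small glycoprotein anchored in the outer membrane (chromosome 10, 43578284 to 43584265, plus strand), was at 438, 404 and 420 CPM in RC/+ and at 747, 826, 897, 834 and 984 CPM in RC/-, which was 1.02 higher on the log2 scale (SE 0.09, adjusted p = 3.67e-09). A processed pseudogene, Gm6212, matches 218 bases of Cd24a at 96.8% identity and had 34 counts over all libraries. Anxa2, a phospholipid-binding protein of the membrane and its cytoskeleton (chromosome 9, 69453620 to 69491795, plus strand), was at 192, 196 and 225 CPM in RC/+. It was at 456, 508, 497, 562 and 472 CPM in RC/-, which was 1.29 higher on the log2 scale (SE 0.12, adjusted p = 6.36e-09). Leukocytes and fibroblasts also express Cd44 and Anxa2, and the rise of both marker lists given above accompanied these differences. Their part in the differences was not tested.

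Vcam1, a ligand of the leukocyte integrin alpha4 beta1 and a marker of proximal tubule cells that fail to repair (chromosome 3, 116109949 to 116129688, minus strand), was the exception. It was at 29.5, 24.9 and 31.3 CPM in RC/+. In RC/- it was at 70.3, 71.4 and 77.6 CPM in replicates 15 to 17, but at 26.9 and 18.3 CPM in replicates 13 and 14, inside or below the RC/+ range. The log2 fold change of 0.67 (SE 0.31, 95% interval 0.03 to 1.32) had an adjusted p of 0.0935. Without replicate 14 it was 1.001 (adjusted p = 0.00167), and without replicate 13 it was 0.86 (adjusted p = 0.0292). Endothelial cells express Vcam1 too, and the summed endothelial markers were 840 to 1233 CPM in RC/- and 1084 to 1473 CPM in RC/+.

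The transcription factors were both higher in RC/-, and Sox4 changed the least of the 9 markers called. Sox9, which marks regenerating tubule cells (chromosome 11, 112782224 to 112787760, plus strand), was at 1.43, 1.19 and 1.49 CPM in RC/+ and at 3.81, 2.91, 4.49, 3.57 and 2.70 CPM in RC/-. It rose by 1.28 on the log2 scale (SE 0.22, adjusted p = 4.79e-05), from 27 to 37 counts per library in RC/+. Sox4 (chromosome 13, 28948919 to 28953713, minus strand) was at 50.1, 42.8 and 39.9 CPM in RC/+ and at 67.7, 67.9, 86.3, 69.5 and 122 CPM in RC/-. It rose by 0.87 on the log2 scale (SE 0.18, adjusted p = 0.000590). On the opposite strand, Gm26735 overlaps 54.56% of the exon bases of Sox4. The strand setting of the counts is not given in the sources used here, so reads of this pair cannot be told apart. Scaling by trimmed mean (TMM) factors in place of total counts moved the median of all genes from 0.141 to 0.0118 and lowered the markers' log2 fold changes by 0.128 to 0.140, with the same 9 called.

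**Figure D1:**
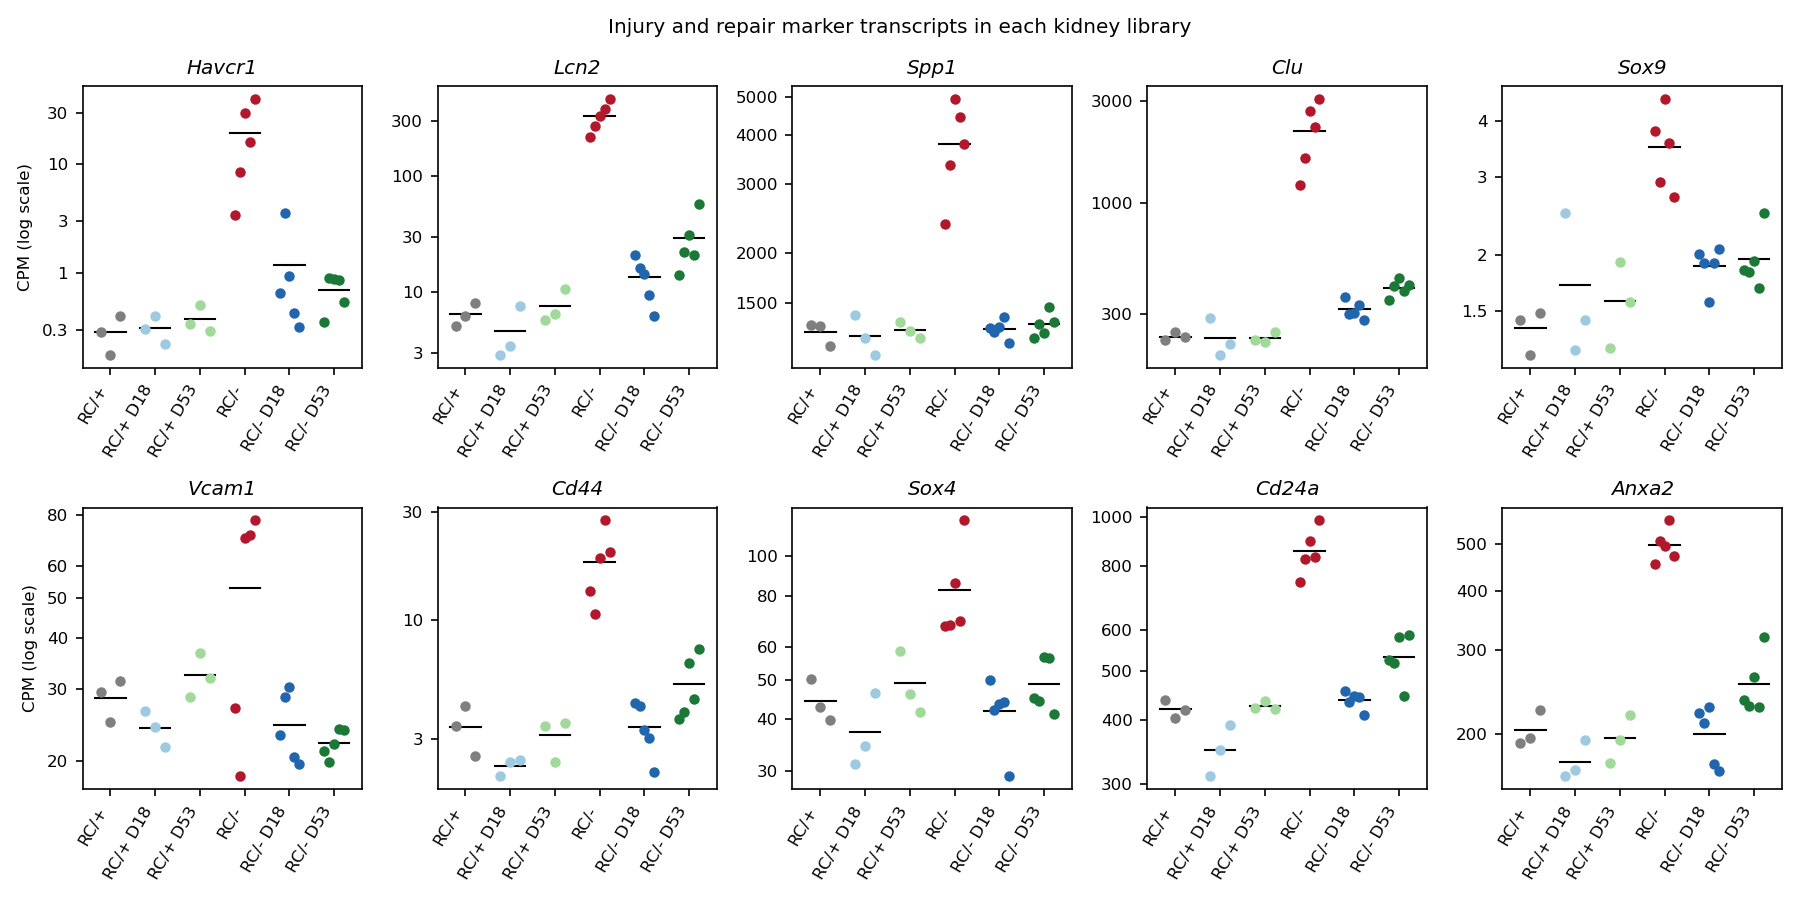
CPM of each marker (vertical log axis, scaled separately for each gene) in every library of the 6 groups, with a point per library and a black line at the group mean. The 5 RC/- libraries stand above all other libraries for Lcn2, Spp1, Clu, Sox9, Cd44, Sox4, Cd24a and Anxa2, while RC/- replicates 13 and 14 overlap the other groups for Vcam1 and RC/- D18 replicate 19 overlaps RC/- for Havcr1.

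The next comparison asked how the markers stand in cystic kidneys whose RC allele lacks the miR-17 motif. All 10 were lower in RC/- D18 than in RC/- (Vcam1 not in every fit), where 26.9% of genes tested were lower, and all 10 were lower in RC/- D53 than in RC/-, where 18.9% were. Both comparisons use the same RC/- libraries, so the second is not independent of the first. The median log2 fold change of the 10 was -1.42 in D18, against -0.102 for all genes, and -1.26 in D53, against -0.0811. The groups did not overlap for 8 markers in D18 (18.8% of genes tested) and for 9 in D53 (11.8%).

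Lcn2 fell the most in RC/- D18 and Havcr1 in RC/- D53. Lcn2 was at 21.1, 16.2, 14.4, 9.40 and 6.29 CPM in RC/- D18 and at 14.1, 22.02, 31.5, 20.9 and 57.8 CPM in RC/- D53. Its log2 fold changes against RC/- were -4.70 in D18 and -3.63 in D53 (SE 0.34 each). Havcr1 was at 0.657, 3.59, 0.942, 0.434 and 0.320 CPM in RC/- D18 and at 0.357, 0.896, 0.880, 0.863 and 0.541 CPM in RC/- D53. RC/- D18 replicate 19, with 75 counts, was above RC/- replicate 13, with 81 counts in a deeper library, so the D18 and RC/- groups overlapped. The log2 fold changes of Havcr1 were -4.00 in D18 and -4.25 in D53 (SE 0.54 each).

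Clu was at 359, 299, 302, 332 and 281 CPM in RC/- D18 and at 348, 405, 441, 384 and 408 CPM in RC/- D53. The lowest RC/- library, at 1205 CPM, was far above both groups, and the log2 fold changes were -2.71 and -2.37 (SE 0.17 each). Spp1 was at 1185 to 1375 CPM in RC/- D18 (median 1294) and at 1217 to 1458 CPM in RC/- D53 (median 1327), and its log2 fold changes were -1.52 and -1.48 (SE 0.12 each). Cd44 was at 4.34, 4.17, 3.30, 3.04 and 2.13 CPM in RC/- D18 and at 3.66, 3.95, 6.49, 4.49 and 7.51 CPM in RC/- D53, with log2 fold changes of -2.36 and -1.76 (SE 0.24 each). None of these 3 genes had an edited library that reached the RC/- range.

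Anxa2 was at 167 to 228 CPM in RC/- D18 and 228 to 320 CPM in RC/- D53, with log2 fold changes of -1.33 and -0.98 (SE 0.10 each). Cd24a was at 410 to 457 and 447 to 588 CPM, with log2 fold changes of -0.96 and -0.69 (SE 0.08 each). Both membrane proteins were below every RC/- library. The transcription factors were also lower, with Sox9 at -0.84 in D18 and -0.80 in D53 (SE 0.19 each) and Sox4 at -0.96 and -0.73 (SE 0.16 each).

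Vcam1 was at 23.1, 28.6, 30.3, 20.4 and 19.7 CPM in RC/- D18 and at 21.1, 19.9, 21.9, 23.9 and 23.7 CPM in RC/- D53. Both groups overlapped RC/- through RC/- replicates 13 and 14. The D18 decrease of -0.92 on the log2 scale (SE 0.27, adjusted p = 0.00826) and the D53 decrease of -1.04 (SE 0.27, adjusted p = 0.00467) passed the threshold. The D18 call was lost without RC/- D18 replicates 20 to 22, whose muscle transcripts were high (log2 fold change -0.82, adjusted p = 0.106), with replicates 20 to 27 as a covariate (adjusted p = 0.0983) and when the D18 and unedited RC/- groups were fitted alone (adjusted p = 0.0613). The other 9 markers were still lower in D18 without those 3 libraries. All RC/- D53 libraries had high muscle transcripts, so their part in the D53 differences cannot be separated by leaving libraries out. With replicates 20 to 27 as a covariate, which rests on RC/- D18 replicates 18 and 19 against 20 to 22, 5 markers were called lower in D53 (Lcn2, Spp1, Clu, Cd24a and Anxa2). The log2 fold change of Havcr1 was then -2.78 (adjusted p = 0.0556) and that of Cd44 -1.16 (adjusted p = 0.0791). Those of Sox9, Vcam1 and Sox4 were -0.70, -0.88 and -0.47 (adjusted p = 0.223, 0.299 and 0.345).

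**Figure D2:**
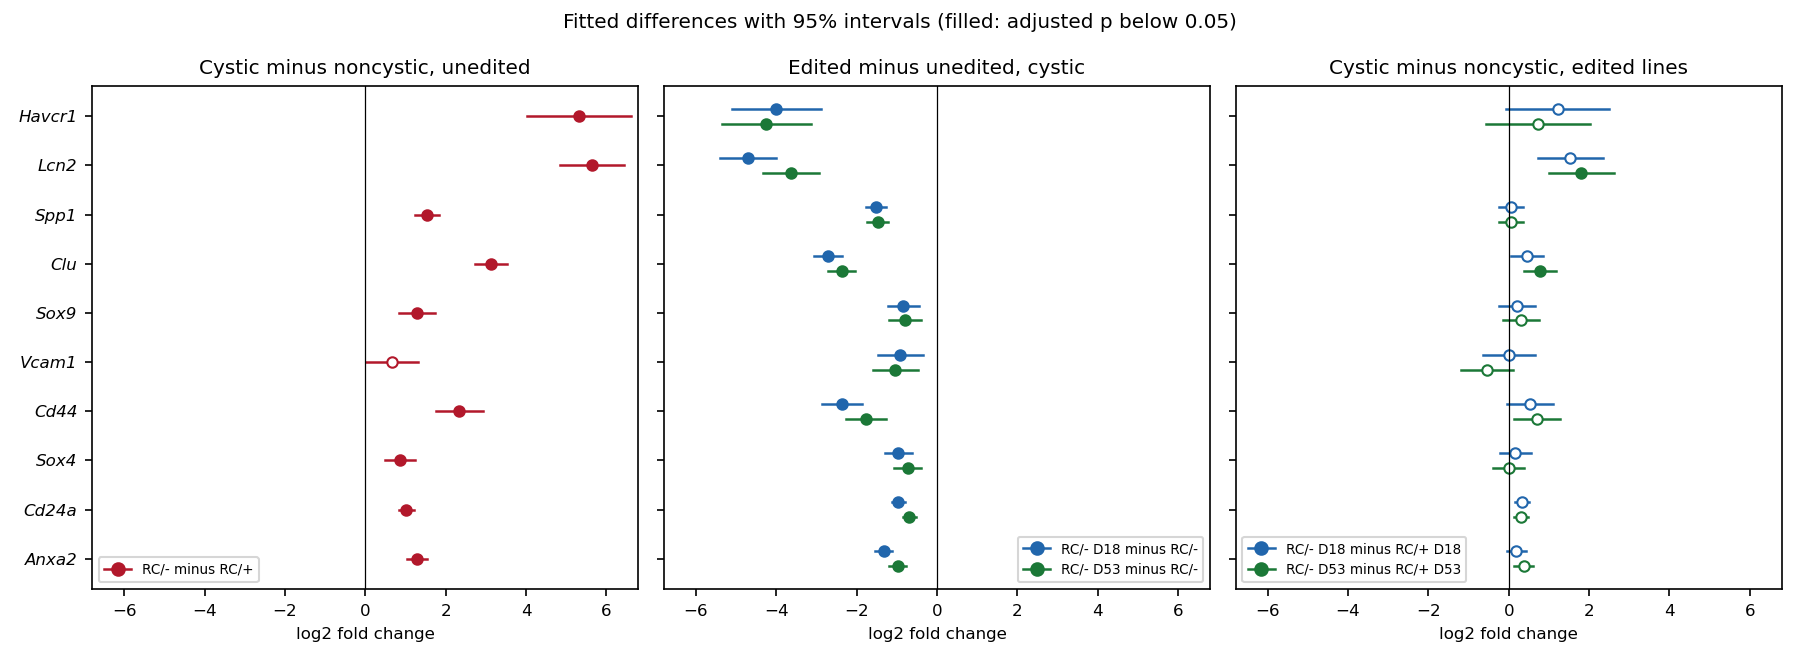
Fitted log2 fold changes (horizontal axis) of the 10 markers with 95% intervals, for cystic against noncystic unedited kidneys on the left, edited against unedited cystic kidneys in the middle and cystic against noncystic kidneys within each edited line on the right. Filled points have an adjusted p below 0.05: 9 on the left, 10 in each line in the middle, and on the right Lcn2 and Clu in D53 alone.

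Within each edited line, RC/- kidneys were then set against RC/+ kidneys. The means compared leave out the unedited libraries, but those libraries still enter the estimate of the spread that all groups share. In D18, no marker was called by limma, nor by edgeR or DESeq2 (0 of 10 each), and 0.261% of genes tested were higher. At an unadjusted p below 0.05, for which no share of all genes is given, Lcn2, Clu and Cd24a passed. Only Cd24a had groups that did not overlap (3.85% of genes tested), at 311, 350 and 392 CPM in RC/+ D18 and 410 to 457 CPM in RC/- D18, a difference of 0.33 on the log2 scale (SE 0.09, adjusted p = 0.156). Lcn2 was at 2.87, 3.42 and 7.68 CPM in RC/+ D18, inside which the lowest RC/- D18 library fell. Its log2 fold change was 1.53 (95% interval 0.73 to 2.34, adjusted p = 0.119), and it was called without RC/+ D18 replicate 9 (1.96, adjusted p = 0.0365) or without RC/- D18 replicate 22 (1.77, adjusted p = 0.0448). Havcr1 had a log2 fold change of 1.22 (95% interval -0.07 to 2.5) and Clu one of 0.46 (0.06 to 0.85). Spp1 and Vcam1 had log2 fold changes of 0.06 (-0.24 to 0.36) and about 0 (-0.64 to 0.64). Those of Cd44, Anxa2, Sox9 and Sox4 were 0.52, 0.19, 0.20 and 0.16.

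In D53, Lcn2 and Clu were higher in RC/- than in RC/+, 2 of the 10 markers against 2.45% of genes tested, and none was lower (0.146%). Lcn2 was at 5.78, 6.51 and 10.5 CPM in RC/+ D53, all below the RC/- D53 libraries, and it rose by 1.81 on the log2 scale (SE 0.39, adjusted p = 0.00867). Clu was at 226, 222 and 245 CPM in RC/+ D53 and at 348 CPM or more in RC/- D53, which was 0.78 higher on the log2 scale (SE 0.19, adjusted p = 0.0242). Without RC/+ D53 replicate 10 or replicate 11, neither was called: Lcn2 then had a log2 fold change of 1.64 or 1.72 (adjusted p = 0.0699 or 0.0619). Clu was also not called without RC/+ D53 replicate 12 or RC/- D53 replicate 24 or 25 (log2 fold change 0.74 to 0.823, adjusted p = 0.0513 to 0.0742), nor by edgeR (adjusted p = 0.0546).

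Groups did not overlap in D53 for 5 markers higher in RC/- (8.19% of genes tested): Lcn2, Clu, Cd44, Cd24a and Anxa2. For Vcam1 they did not overlap in the other direction (3.45%), with 28.6, 36.6 and 31.9 CPM in RC/+ D53 and 19.9 to 23.9 CPM in RC/- D53. The log2 fold changes were 0.70 for Cd44 (SE 0.28, adjusted p = 0.239), 0.31 for Cd24a (SE 0.09, adjusted p = 0.0635, and 0.0145 without RC/- D53 replicate 26), 0.38 for Anxa2 (SE 0.12, adjusted p = 0.0908) and -0.54 for Vcam1 (SE 0.31, adjusted p = 0.488). Fitted on the D53 groups alone, Vcam1 passed (adjusted p = 0.00741), and by the DESeq2 Wald test Cd24a passed (log2 fold change 0.27, adjusted p = 0.0371). Those of Havcr1, Sox9, Spp1 and Sox4 were 0.73, 0.31, 0.05 and about 0, and none passed the threshold. Neutrophil genes also had a higher sum in this comparison: 10.96 to 16.2 CPM in RC/- D53 and 5.17 to 9.38 CPM in RC/+ D53. Ngp, a neutrophil granule gene, was the 1 called of 8 tested (log2 fold change 2.17, adjusted p = 0.0478). It had few counts, 1 to 9 per library in RC/+ D53 and 19 to 30 in RC/- D53. Against unedited RC/-, where Lcn2 was lower in RC/- D53, 7 of the 8 neutrophil genes tested had a positive log2 fold change. Their median was 1.01, and 2 were called higher, where 11.3% of genes tested were. Of the macrophage genes 8 of 12 were higher in RC/- D53 than in RC/+ D53 (summed 408 to 560 against 286 to 338 CPM), and of the muscle genes 9 of 10. Their part in the Lcn2 and Clu differences was not tested.

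Whether the cystic difference was equal with and without the motif was tested with an interaction term. It was smaller in D18 than in the unedited mice for 8 of 10 markers (10.8% of genes tested had a lower interaction term) and smaller in D53 for 9 (6.55%). The terms share the unedited RC/- and RC/+ libraries. By limma, Vcam1 was called in neither (adjusted p = 0.332 and 0.0758), and Sox4 was not called in D18 (adjusted p = 0.0670). The Vcam1 interaction in D53 did pass by edgeR (-1.345, adjusted p = 0.0409) and by the DESeq2 Wald test (-1.356, adjusted p = 0.0287). The interaction of Lcn2 was -4.11 in D18 and -3.84 in D53 (SE 0.55 each), and that of Spp1 was -1.49 and -1.5 (SE 0.20 each). The limma calls of the transcription factors and Vcam1 also turned on single libraries. In D53 the call of Sox9 (adjusted p = 0.0409) held with 1 library left out only when that was RC/+ D53 replicate 10, RC/- replicate 14 or 17, or RC/- D53 replicate 27, and it was lost with TMM factors. That of Sox4 in D53 (adjusted p = 0.0325) was lost without RC/+ replicate 5 or 6, RC/+ D53 replicate 10 or 11, RC/- replicate 17, or RC/- D53 replicate 23 or 24 (adjusted p = 0.0509 to 0.106). In D18, Sox9 was lost without RC/+ replicate 5 or RC/+ D18 replicate 7 (adjusted p = 0.0508 and 0.0625), and without RC/- D18 replicates 20 to 22 (adjusted p = 0.0812). Sox4 in D18 passed without RC/+ D18 replicate 7, RC/- replicate 13 or 14, or RC/- D18 replicate 18 (adjusted p = 0.0415 to 0.0488). Vcam1 passed without RC/- replicate 14 in D18 (adjusted p = 0.0352) and without RC/- replicate 13 or 14 in D53 (adjusted p = 0.0301 and 0.00281).

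The lines were also compared with each other. None of the 10 markers was called by limma, edgeR or DESeq2 between RC/- D53 and RC/- D18, where 0.244% of genes were higher and 0.0222% lower in D53. No share of all genes is given for an unadjusted p below 0.05. At that cutoff, Lcn2, Cd44, Cd24a and Anxa2 passed, all with a higher level in D53 and with overlapping groups. Their log2 fold changes were 1.06 (95% interval 0.37 to 1.76), 0.59 (0.10 to 1.09), 0.27 (0.11 to 0.43) and 0.35 (0.14 to 0.56). The difference between the lines in the RC/- against RC/+ difference was 0.28 for Lcn2 (-0.86 to 1.41) and 0.32 for Clu (-0.24 to 0.88), and no marker was called by limma, edgeR or DESeq2, with 0% of genes called in either direction by limma. At an unadjusted p below 0.05 none of the 10 passed. In noncystic kidneys, no marker was called by limma, edgeR or DESeq2 in RC/+ D18 against RC/+ (0% of genes higher, 0.00443% lower) or in RC/+ D53 against RC/+ (0% in either direction). Only Cd24a passed an unadjusted p below 0.05, in D18. Cd44 and Cd24a had all RC/+ D18 libraries below all RC/+ libraries (5.07% of genes tested), with log2 fold changes of -0.53 (SE 0.31) and -0.27 (SE 0.10). Pkd1 itself was at 50.7 ± 0.803 CPM in RC/+ (SD, n = 3) and 55.2 to 61.7 CPM on average in the other groups, and its adjusted p was 0.173 or more in all comparisons of groups. This total counts both alleles and does not check the edit.

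The 5 RC/- kidneys did not carry the markers at equal levels. Replicates 13 and 14 were below replicates 15 to 17 for 8 of 10 markers, all but Sox9 and Anxa2. Replicate 13 was the lowest for 7 markers and replicate 17 the highest for 6. The mean of replicates 13 and 14 against that of 15 to 17 was 5.98 against 28.7 CPM for Havcr1, 22.6 against 73.1 CPM for Vcam1 and 12.1 against 22.1 CPM for Cd44. For Anxa2 it was 482 against 510 CPM and for Sox9 3.36 against 3.59 CPM, so the means of these genes differed little across the split. Sox9 still ranged from 2.70 to 4.49 CPM over the 5 RC/- kidneys. Replicates 13 and 14 also had the highest summed proximal tubule markers (5319 and 6044 CPM, against 2638 to 4690 CPM) and the lowest summed macrophage markers (715 and 639 CPM, against 872 to 1160 CPM). Their neutrophil sums were the lowest too (8.21 and 5.53 CPM, against 9.21 to 14.1 CPM). So were their T cell sums (11.9 and 10.9 CPM, against 15.4 to 16.4 CPM). Their endothelial sums were the highest (1233 and 1030 CPM, against 840 to 960 CPM), and so were their muscle sums (16.4 and 15.9 CPM, against 10.6 to 12.8 CPM). The fibroblast list did not follow the split, with 5745 and 4295 CPM against 3454 to 5651 CPM. Nor did the distal nephron and collecting duct list, with 6451 and 7462 CPM against 4522 to 7113 CPM. This split was noticed in the values and carries no test, and the labels give no litter or disease score for these mice. In the edited lines, RC/- D18 replicate 22 was the lowest of its group for 9 markers, all but Sox9, and RC/- D53 replicate 27 was the highest of its group for 5.

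**Figure D3:**
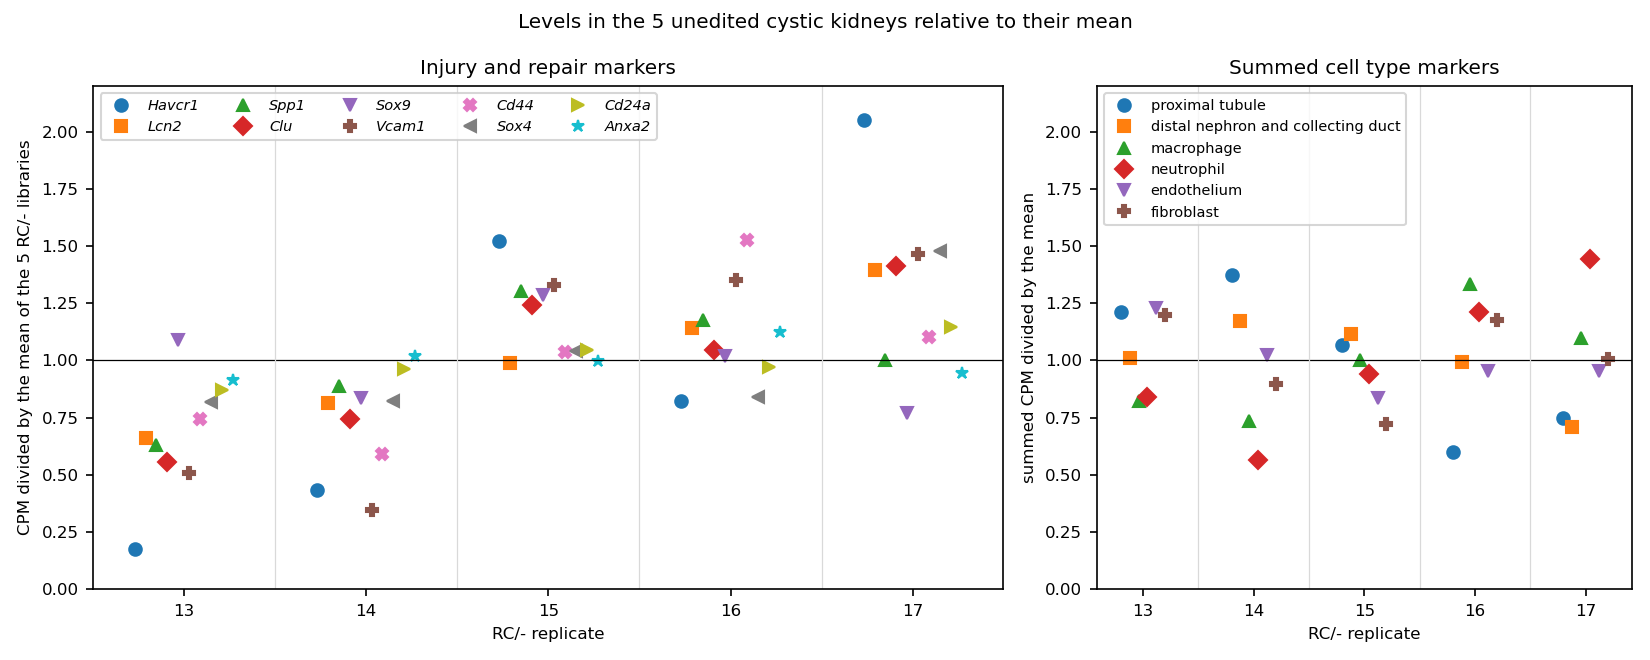
Level in each of the 5 RC/- libraries divided by the mean of the 5 (vertical axes), for each marker on the left and for the summed CPM of 6 cell type marker lists on the right. Havcr1 and Vcam1 spread the most, and replicates 13 and 14 lie below 1 for most markers and above 1 for the proximal tubule list.

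Other genes of the same biology were described from lists chosen with earlier results of these data known. Of 25 further genes of tubule injury and failed repair, 17 were higher and 1 lower in RC/- than in RC/+ (25.5% and 12.2% of genes tested). Their median difference was 0.915 on the log2 scale, against 0.141 for all genes. The highest were the intermediate filament gene Krt20 at 3.07 (SE 0.58), the macrophage chemoattractant Ccl2 at 2.66 (SE 0.36), Krt18 at 2.62 (SE 0.16) and Dcdc2a, a doublecortin-domain gene, at 2.58 (SE 0.20). The lowest of those past the threshold were Itgb8, an integrin subunit, at -0.91 (SE 0.10) and Prom1, a progenitor surface protein, at 0.33 (SE 0.08), which was not called with TMM factors (adjusted p = 0.0547). In D53, 5 were still higher in RC/- than in RC/+: Gdf15, a stress-induced cytokine, at 1.46 (SE 0.20), Krt18 at 1.28 (SE 0.16), Dcdc2a at 1.08 (SE 0.20), Krt8 at 0.55 (SE 0.09) and Tnfrsf12a, the TWEAK receptor, which was named after its values were seen and was not called when 1 of RC/+ D53 replicates 10 to 12 or RC/- D53 replicates 24, 25 or 27 was left out (adjusted p = 0.0502 to 0.206). In D18 none was called by limma, edgeR or DESeq2, and 5 passed an unadjusted p below 0.05, with no share of all genes at hand. Dcdc2a, Krt18 and Krt8 were higher in RC/- D53 than in RC/- D18 by 1.02, 0.76 and 0.45 on the log2 scale, where 0.244% of genes tested were higher.

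Of 21 receptors, ligands and partner genes of the markers, 9 were higher (6 by edgeR or DESeq2) and 3 lower in RC/- than in RC/+. Of all genes tested, 25.5% were higher and 12.2% lower by limma. The median difference of the partner list was 0.284 on the log2 scale, against 0.141 for all genes. The hyaluronan synthases Has1 and Has2, which make the ligand of Cd44, had log2 fold changes of 2.83 (SE 0.56) and 2.46 (SE 0.47). Ahnak, a scaffold protein bound by annexin A2, was at 1.78 (SE 0.13), and Selp, which binds Cd24, at 1.74 (SE 0.47). The lowest were Mmp9, a protease that forms a complex with lipocalin 2, at -1.54 (SE 0.38) and Lrp2 (megalin), which takes up filtered lipocalin 2, at -1.35 (SE 0.19). Ahnak remained higher (0.86, SE 0.13) and Mmp9 lower (-1.5, SE 0.38) in RC/- D53 than in RC/+ D53. The Mmp9 call was lost when 1 of RC/+ D53 replicates 10 to 12 or RC/- D53 replicates 24 to 27 was left out (adjusted p = 0.0507 to 0.126). Itgav, an integrin subunit that binds osteopontin, was higher in RC/- D18 than in RC/+ D18 (0.35, SE 0.07, adjusted p = 0.0450), and this call was lost with TMM factors and in 7 of the 8 fits with 1 library left out (adjusted p = 0.0509 to 0.235). Of 18 related family members, 17 were tested, and 12 were higher and none lower in RC/- (25.5% and 12.2% of genes tested). Their median difference was 0.769 on the log2 scale, against 0.141 for all genes. They were led by Anxa1 at 1.67 (SE 0.15), Icam1 at 1.52 (SE 0.15), Sox11 at 1.41 (SE 0.32) and Anxa8 at 1.25 (SE 0.41), and the smallest called were Anxa4 at 0.39 and Anxa7 at 0.38 (SE 0.07 each). Anxa1 (0.61, SE 0.15) and Anxa6 (0.37, SE 0.08) were also higher in RC/- D53 than in RC/+ D53. The Anxa1 call was lost when 1 of RC/+ D53 replicates 10 to 12 or RC/- D53 replicates 25 and 27 was left out (adjusted p = 0.0565 to 0.148), and Anxa6 was at the threshold without RC/+ D53 replicate 10 (adjusted p = 0.05). Anxa8 was not called in RC/- against RC/+ without RC/+ replicate 4 (0.88, adjusted p = 0.149).

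**Figure D4:**
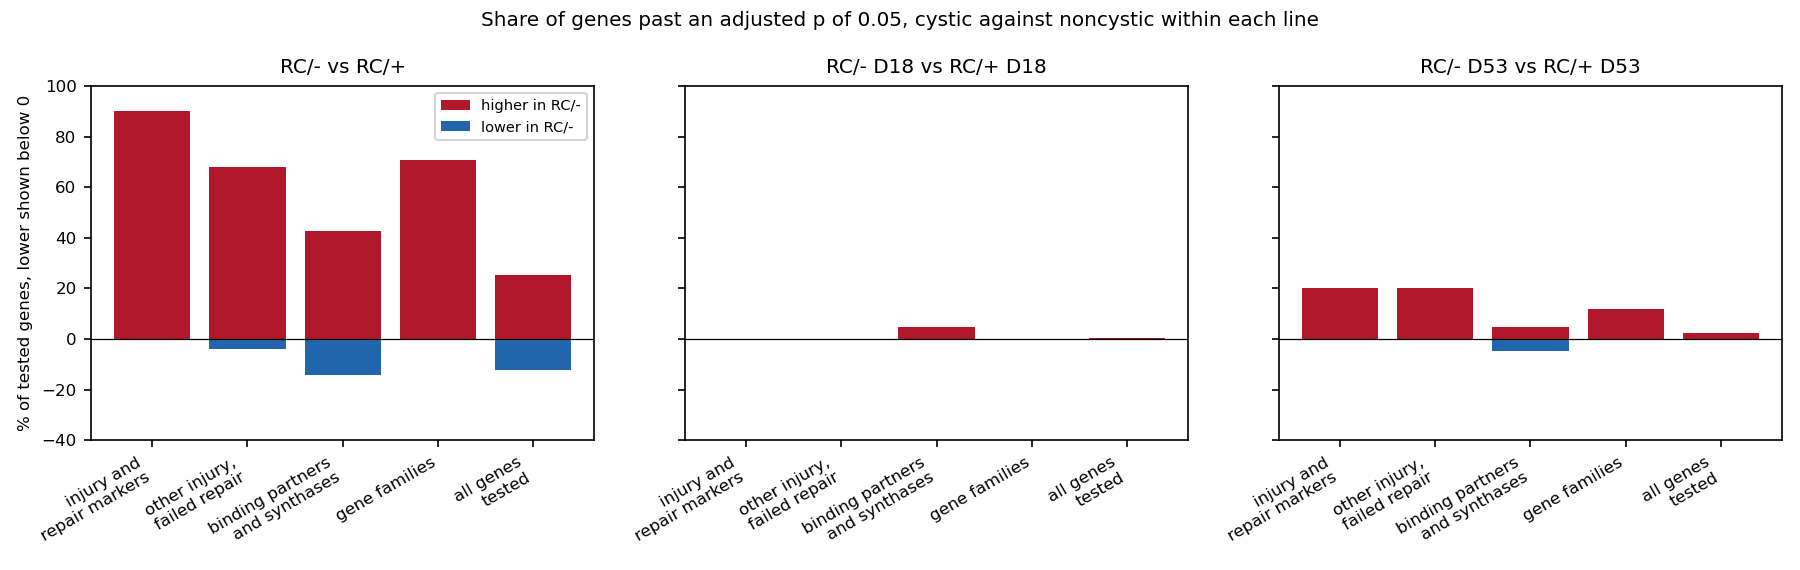
Percentage of tested genes with an adjusted p below 0.05 in the comparison of RC/- with RC/+ within the unedited, D18 and D53 mice (panels), higher in red above 0 and lower in blue below 0, for the 10 markers, the 3 other gene lists and all genes tested. In the unedited mice 9 of 10 markers were higher against 25.5% of all genes, and in D53 2 of 10 were against 2.45%.

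Because the markers moved together, their promoters were searched for short motifs. RefSeq windows of 300 bases (GRCm38.p6, 250 before and 50 after a gene start) were at hand for 6 of the 10 markers: Havcr1, Lcn2, Spp1, Cd44, Sox4 and Anxa2. On both strands the AP-1 motif TGANTCA occurred in Anxa2 and in Havcr1, there only in the window at 46750918 to 46751217. It occurred in 7.81% of all 32851 windows, a share per window and not per gene. The TEAD motif GGAATG occurred in Sox4 and in 14.7% of windows. The STAT motif TTCNNNGAA (8.30% of windows) and the NF-kB consensus (2.46%) occurred in none of the 6. The Anxa2 and Sox4 matches start 95 and 168 bases before the RefSeq start of their windows, which differs from the gene start given above. The stretches around these matches are shown with the motif in capitals. They lie at chr9:69453578-69453604 (plus strand) and chr13:28953852-28953877 (minus strand). A match is a description of letters and not evidence of binding.

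Anxa2 promoter: ccaagttggaTGAGTCAcccagcaggg
Sox4 promoter: tctgtaaattGGAATGaggtcagatt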

How the data were processed

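Total RNA of whole kidneys was sequenced in 24 libraries. The authors trimmed reads with Trim Galore 0.6.3, aligned them to GRCm38 with STAR 2.5.3a, which counted reads per Ensembl gene, and deposited raw counts without normalization. The strand setting is not given in the sources used here. The 10 markers and all gene lists were chosen with earlier results of these data known.

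The counts were turned into log2 CPM by library totals (edgeR 4.0.16, prior count 2), and the 22570 genes with a mean of at least -3 were tested by limma-trend (limma 3.58.1, R 4.3.3). One model held the 6 group means over all 24 libraries. Calls needed a two-sided Benjamini-Hochberg adjusted p below 0.05 within a comparison. Shares of all genes are given for these calls and for groups that did not overlap, but not for an unadjusted p. Alternatives were TMM and DESeq2 1.42.0 size factors, the edgeR quasi-likelihood and DESeq2 Wald tests, no filter, a minimum change, the compared groups alone, sex or replicates 20 to 27 as covariates, a prior count of 0.5 and leaving out libraries. The test of the difference between the lines and the fit without replicates 20 to 22 were added after seeing the data. The fitting code was tested on simulated data.

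Named genes were all markers and, from each other list, the 4 highest and 2 lowest of those called in RC/- against RC/+ and up to 4 called within an edited line. Of cell type lists, genes at 0 counts and the 2 with the largest change were named. Positions and exon lengths are from GENCODE M21, and copies were sought with blastn 2.17.0 (at least 95% identity over 200 bases). Nothing states that mice of a group came from separate litters, so p-values measure the spread between these mice.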

Additional observations from a re-analysis of the deposited data

Results flagged for a closer look

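Havcr1 in RC/- D18 replicate 19 stood apart from the rest of its group, at 3.59 CPM against 0.320 to 0.942 CPM in the other 4 libraries, a gap of 0.81 of the group's range (critical value 0.71 for 5 samples). On the log2 CPM scale used in the fits it was at 1.88, against -1.32 to 0.0315, and the gap was not tested on that scale. The 30 group and marker combinations with 5 libraries were tested at both ends, and chance flags about 1 in 20 groups. Summed cell type lists were tested in the same way, and none was flagged.

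The RC/- against RC/+ difference was smaller in an edited line than in the unedited mice for most markers, by an interaction term in limma. In D18 the log2 difference of the differences was -4.11 for Havcr1, -4.11 for Lcn2, -1.49 for Spp1, -2.67 for Clu, -1.09 for Sox9, -1.82 for Cd44, -0.70 for Cd24a and -1.10 for Anxa2. In D53 it was -4.59 for Havcr1, -3.84 for Lcn2, -1.50 for Spp1, -2.35 for Clu, -0.98 for Sox9, -1.65 for Cd44, -0.87 for Sox4, -0.71 for Cd24a and -0.91 for Anxa2. In all of them the RC/- mean in the edited line lay nearer to its RC/+ mean.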

How the results depend on the processing

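Counts of markers called kept within 1.5 times the values reported in most fits. With a minimum change of 1 on the log2 scale also required, 6 markers were lower in RC/- D18 and 6 in RC/- D53 than in RC/-, 1 was higher within D53 and 5 had a D53 interaction. With replicates 20 to 27 as a covariate, 5 markers were lower in RC/- D53 than in RC/-, 1 was higher within D53 and 4 had a D53 interaction. Within D53, 1 was called with DESeq2 size factors and 1 by edgeR. Leaving out 1 library at a time gave 0 to 1 markers called within D18, 0 to 3 within D53, 9 to 10 in RC/- against RC/+, and 7 to 10 for either interaction. Values near 0 changed sign. Within D18, Vcam1 was at 0.00425 with sex as a covariate, 0.0965 with replicates 20 to 27 as a covariate and 0.0964 without replicates 20 to 22, and at -0.0831 to 0.072 with 1 library left out. Spp1 within D18 was at -0.0211 to 0.146, Sox4 within D53 at -0.109 to 0.139 (0.023 with sex and 0.262 with replicates 20 to 27 as covariates), and the Lcn2 difference between lines at -0.146 to 0.55 (-0.297 without replicates 20 to 22). The cause of these shifts was not tested. No paired analysis was possible because the labels give no litter or other pairing of mice between groups. Depth limits Havcr1, which had 4 to 13 counts per noncystic library.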
